A study of Mus musculus with 9 samples.

Results

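The interferon-inducible GTPases described here were Gbp2, Gbp3, Gbp5, Gbp7, Igtp, Irgm1, Irgm2, Iigp1, Tgtp1 and Tgtp2. They were chosen by name, and all 10 were found among the 55536 genes of the expression table. They fall into 3 classes: 4 guanylate-binding proteins (GBPs), 3 regulatory immunity-related GTPases (IRGs), namely Igtp, Irgm1 and Irgm2, and 3 effector IRGs, namely Iigp1, Tgtp1 and Tgtp2. The study asked how loss of the transcription factor IRF7 alters leukemia cells, and bulk RNA from 9 libraries of mouse acute myeloid leukemia (AML) cells was sequenced.

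The leukemias were made by bringing the fusion oncogene MLL-AF9, with a green fluorescent protein (GFP) marker, into c-kit+ cells of wild-type (WT) or IRF7-/- mice by retrovirus. GFP+ leukemia cells were then given to C57BL/6J recipients aged 6 to 8 weeks that had not been irradiated. Recipients were killed at day 18, and leukemia cells were sorted from bone marrow by c-kit, the receptor that marks immature cells. The groups, each of 3 libraries, were WT c-kit- cells, WT c-kit+ cells and c-kit+ cells labelled IRF7-/-. The labels give the genotypes as control-GFP and IRF7-/--GFP overexpression, so GFP and the fusion were common to every group, and the recipients kept their own marrow. The IRF7-/- allele has a cassette in place of exons 2 and 3, which a value for the whole gene cannot test. The labels do not say whether the 3 libraries of a group came from separate mice, so the p-values below measure the spread between these libraries, which may be technical.

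Both families are GTPases whose transcription is switched on by interferons, above all by interferon-gamma. GBPs gather on the membranes of intracellular vacuoles and bacteria, where they disrupt the vacuole and expose microbial products to inflammasomes. Effector IRGs load onto the same vacuoles, whereas regulatory IRGs sit on the cell's own membranes and hold the effectors inactive there, and Irgm1 is also known for its part in autophagy and in the upkeep of blood stem cells under interferon.

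Levels are given in TPM (transcript abundance scaled to gene length and library total), and differences on the log2(TPM + 1) scale. Irf7, the targeted gene, was at 5.31, 3.91 and 3.36 TPM in WT c-kit+ and at 12.8, 5.97 and 7.95 TPM in the libraries labelled IRF7-/- c-kit+. It was thus higher in every library labelled as lacking it (log2 difference 0.89, SE 0.27, limma adjusted p = 0.0321), and in WT c-kit- it lay between 22.3 and 32.3 TPM. A value for the whole gene cannot show whether the replaced exons were missing, so the label was not tested here. According to the paper, qRT-PCR and Western blot were used to verify IRF7 expression in its WT and IRF7-/- leukemia models. Every direction below is therefore given as that of libraries labelled IRF7-/- c-kit+. Kit matched the sort, at 0.52 to 3.03 TPM in WT c-kit-, 50.7 to 58.5 in WT c-kit+ and 70.3 to 85.7 in the labelled libraries. Of 10 leukocyte, myeloid and progenitor genes listed for these leukemias, 9 reached 1 TPM in all 9 libraries. Such genes cannot tell leukemia cells from the recipients' own myeloid cells. Of 9 T and NK cell markers, 7 stayed under 1 TPM in all 9 libraries, among them Cd3e, Trac and Ncr1, and the exceptions were Nkg7 and Cd3d. On the B cell list Ms4a1 and Pax5 stayed under 1 TPM, but Cd79b was at 25.8 to 37.1 TPM in the 9 libraries. On the macrophage list Cd5l and Siglec1 stayed under 1 TPM, but Adgre1 was at 23.0 to 97.1 TPM. No marker list had a gene at 0 in all 9 libraries. In WT c-kit+ 13.1 to 17.3% of the TPM came from the 10 top genes, and in the other 6 libraries 9.39 to 10.3%.

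Since interferons act on these genes through short promoter elements, the promoter stretches with the letters of an interferon-stimulated response element (ISRE) are shown. RefSeq windows on GRCm38.p6, from 250 bases before to 50 bases after the start, were found for 9 of the 10 members. The ISRE letters searched were GAAANNGAAA on both strands, where N is any base. Capitals mark the match, and each sequence reads 5′ to 3′ on the strand of its gene. The GBP genes come first, all from the forward strand of chromosome 3:
Gbp5, chr3:142496739-142496808: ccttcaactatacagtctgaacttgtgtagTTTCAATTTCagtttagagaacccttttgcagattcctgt
Gbp7, chr3:142530253-142530322: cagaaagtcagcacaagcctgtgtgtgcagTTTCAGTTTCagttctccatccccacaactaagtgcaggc
Gbp3, chr3:142559992-142560021: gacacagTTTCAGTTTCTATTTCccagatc
Gbp2, chr3:142620594-142620623: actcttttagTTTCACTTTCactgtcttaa

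The IRG genes follow, with Igtp and Irgm2 on the forward strand of chromosome 11 and Irgm1, Tgtp1 and Tgtp2 on its reverse strand:
Igtp, chr11:58199492-58199555: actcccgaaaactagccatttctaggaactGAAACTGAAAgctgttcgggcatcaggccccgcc
Irgm2, chr11:58214883-58214952: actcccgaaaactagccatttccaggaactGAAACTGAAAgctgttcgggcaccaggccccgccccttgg
Irgm1, chr11:48871428-48871457: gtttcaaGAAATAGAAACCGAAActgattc
Tgtp1, chr11:48992284-48992353: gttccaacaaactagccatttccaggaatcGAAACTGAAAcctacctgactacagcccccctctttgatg
Tgtp2, chr11:49064243-49064312: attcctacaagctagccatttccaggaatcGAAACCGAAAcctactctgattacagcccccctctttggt

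All 9 members with a window held the ISRE letters in at least 1 window, against 3.99% of 27025 genes with RefSeq promoter windows of this length. In the 4 GBP windows the letters lay on the strand opposite the gene, and in the 5 IRG windows on the gene's own strand. The first matching base lay between 30 and 77 bases before the start in 8 of the 9, and 165 bases before it in Gbp5. Gbp3 and Irgm1 each held 2 matches that overlap, shown as 1 run of capitals, and a second Gbp3 window held none. The letters of a gamma-activated site (GAS), TTCNNNGAA, which reads the same on both strands, were in 6 of the 9, against 9.55% of the 27025 genes. These were Gbp5 and Gbp7, with 2 matches each, and Igtp, Irgm2, Tgtp1 and Tgtp2, in each of which they began 11 bases before the ISRE letters. Aligned at the ISRE letters without gaps, Igtp and Irgm2 were the same at 62 of 64 bases, and Tgtp1 and Tgtp2 at 47 of 64. After the ISRE letters the Tgtp2 stretch has an extra base relative to Tgtp1. Later bases were thus compared out of register, and 47 understates the likeness of this pair. In the GENCODE M21 annotation the stretches of Gbp3, Gbp7 and Igtp lie outside every transcript, and those of Gbp5, Irgm2 and Tgtp1 lie in an intron of the same gene. The stretch of Tgtp2 lies in an intron of Olfr56 on the other strand, which also spans Tgtp1. The Irgm1 stretch and 22 bases of the Gbp2 stretch lie in an annotated exon of the gene itself. A match of letters is a description of the sequence and no evidence of binding.

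**Figure D1:**
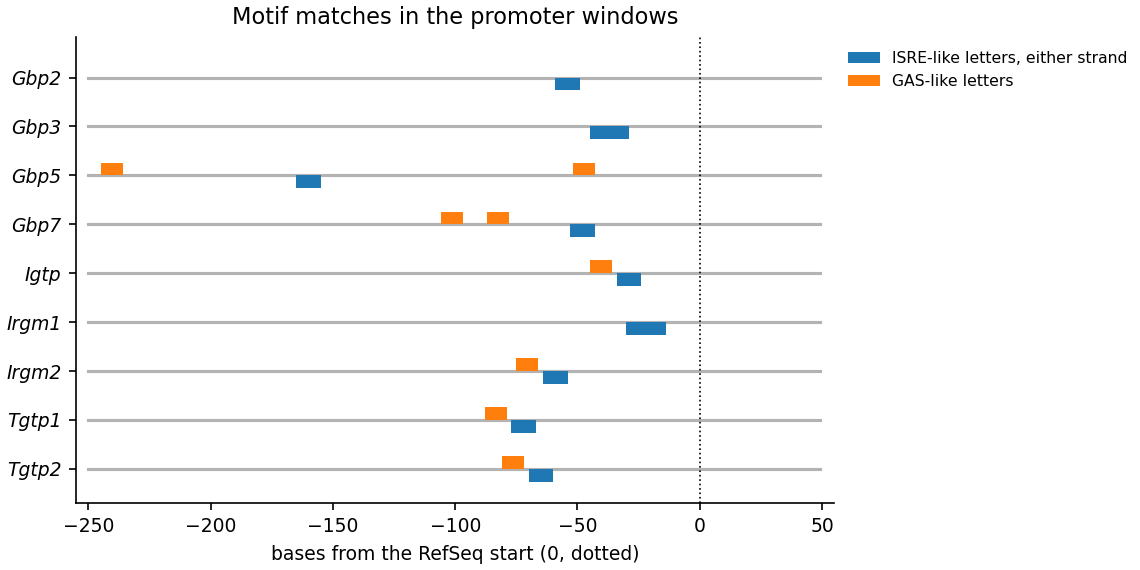
Matches to the ISRE letters (blue, either strand) and the GAS letters (orange) in the RefSeq promoter windows of 9 members (1 window each), by distance in bases from the annotated start (dotted line). Blue marks appear in all 9 windows, and orange marks in 6, just upstream of the blue one in Igtp, Irgm2, Tgtp1 and Tgtp2.

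The genes lie close together. Gbp5, Gbp7, Gbp3 and Gbp2 follow one another on chromosome 3 between 142493978 and 142638008, Irgm1, Tgtp1 and Tgtp2 lie on chromosome 11 between 48861968 and 49064206, and Igtp and Irgm2 lie on chromosome 11 between 58199556 and 58222782, where their annotations share 7974 bases on the same strand. Iigp1 is the only member on chromosome 18. Of the 50-base windows of the longest coding transcript, 91.4% in Tgtp1 and 90.6% in Tgtp2 also occur in a transcript of another gene, mostly each other, so the split of reads between this pair is uncertain. That share was 12.8% in Gbp7, 12.3% in Igtp, 7.36% in Irgm2 and at most 4.79% in the other members.

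Per unit of length, Gbp3 and Irgm1 were the most abundant members in each group and their ranges overlapped in each. In WT c-kit- the order by mean level was Gbp3, Irgm1, Igtp, Irgm2, Gbp2, Gbp7, Gbp5, Tgtp2, Tgtp1 and Iigp1, and among neighbours in this order the ranges overlapped for Gbp3 with Irgm1 and for Gbp2 with Gbp7. In WT c-kit+ Gbp2 ranked below Tgtp2, and the ranges of Irgm2 with Gbp7, and of Gbp5, Tgtp2 and Gbp2 in turn, overlapped. In the libraries labelled IRF7-/- c-kit+ Gbp7 stood above Irgm2 and Tgtp2 above Gbp2 and Gbp5, and neighbours overlapped throughout except Gbp2 with Gbp5. The 10 members summed to 66.9 to 79.2 TPM in WT c-kit-, 52.4 to 62.7 in WT c-kit+ and 211, 162 and 116 in the labelled libraries 1, 2 and 3. Effector IRGs made up 1.02 to 1.86% of that sum in WT c-kit-, 2.12 to 3.33% in WT c-kit+ and 4.90 to 8.88% in the labelled libraries. In bulk RNA, fewer expressing cells and less RNA per cell cannot be told apart.

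**Figure D2:**
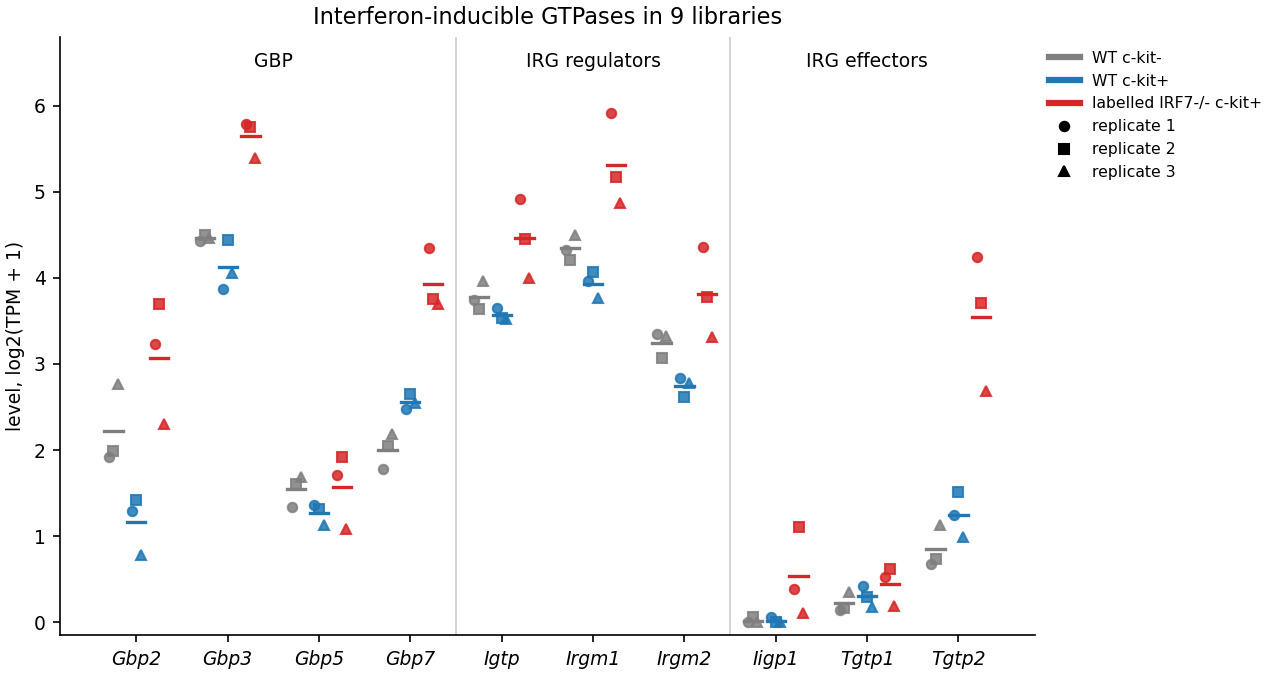
Level of each member, as log2(TPM + 1), in the 9 libraries (circle, square and triangle for replicates 1, 2 and 3; bars for group means). The red marks of the libraries labelled IRF7-/- c-kit+ lie above all blue marks of WT c-kit+ for every member except Gbp5 and Tgtp1.

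The first comparison set the libraries labelled IRF7-/- c-kit+ against WT c-kit+. Of the 8 members that reached 1 TPM in at least 3 of the 6 libraries and were tested, 6 were higher in the labelled libraries and none was lower, at an adjusted p under 0.05 and a difference of at least 1 on the log2 scale. Among all 13238 genes tested, 6.30% were called higher and 5.39% lower. All 8 differences were above 0, with 7 at an unadjusted limma p under 0.05. At an adjusted p under 0.05 there were also 7 of 8, against 48% of all genes tested. The members' median difference was 1.38, and that of all genes 0.12. Tgtp2, Gbp2, Gbp3, Irgm1, Gbp7 and Irgm2 passed, Igtp passed on its adjusted p but not on its size, and Gbp5 passed on neither.

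Among the GBPs, Gbp2, which gathers on pathogen vacuoles, was at 1.44, 1.68 and 0.72 TPM in WT c-kit+ and at 8.38, 11.9 and 3.93 TPM in the labelled libraries. The ranges did not overlap, and the means were 1.28 ± 0.50 and 8.07 ± 4.0 TPM (SD, n = 3), a ratio of 6.31. On the log2 scale the difference was 1.91 (SE 0.36, adjusted p = 0.00573). Gbp3, the most abundant GBP, was at 13.6, 20.7 and 15.6 TPM in WT c-kit+ and at 54.2, 52.9 and 40.8 TPM in the labelled libraries. Every labelled library thus held at least 1.97 times the highest WT c-kit+ value, and the difference was 1.52 (SE 0.17, adjusted p = 0.000823). Gbp7, a GBP known from the defence of macrophages against intracellular bacteria, was at 4.56, 5.30 and 4.82 TPM in WT c-kit+ and at 19.4, 12.5 and 11.98 TPM in the labelled libraries. It rose by 1.38 (SE 0.18, adjusted p = 0.00152), again without overlap.

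Gbp5, which is known to promote inflammasome assembly, was the GBP that did not pass. It was at 1.57, 1.48 and 1.18 TPM in WT c-kit+ and at 2.27, 2.77 and 1.11 TPM in the labelled libraries. The third labelled library lay below all 3 WT c-kit+ libraries and the first and second above them, and the difference was 0.30 (95% confidence interval -0.26 to 0.86, adjusted p = 0.326). The interval ends below the difference of 1 used for a call.

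All 3 regulatory IRGs were higher in the labelled libraries, and 2 of them passed both thresholds. Irgm1 was at 14.6, 15.8 and 12.6 TPM in WT c-kit+ and at 59.1, 34.9 and 28.2 TPM in the labelled libraries. Its labelled range was wide but lay wholly above WT c-kit+, with a ratio of means of 2.85 and a difference of 1.38 (SE 0.25, adjusted p = 0.00503). Irgm2 was at 6.17, 5.13 and 5.86 TPM in WT c-kit+ and at 19.5, 12.8 and 8.91 TPM in the labelled libraries. The difference was 1.07 (SE 0.25, adjusted p = 0.0131), and it was 0.80 (adjusted p = 0.0195) without the labelled replicate 1, under the size used for a call. Igtp, also called Irgm3, was at 11.5, 10.6 and 10.5 TPM in WT c-kit+ and at 29.3, 20.9 and 15.0 TPM in the labelled libraries. It was higher in each of the 3 libraries, yet its difference of 0.89 (SE 0.22, adjusted p = 0.0149) stayed below 1, and it reached 1.12 without the labelled replicate 3.

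Among the effector IRGs, Tgtp2 differed most of all members. It was at 1.37, 1.86 and 0.98 TPM in WT c-kit+ and at 18.0, 12.1 and 5.45 TPM in the labelled libraries. The means were 1.40 ± 0.44 and 11.8 ± 6.26 TPM (SD, n = 3), a ratio of 8.44, and the difference was 2.30 (SE 0.38, adjusted p = 0.00342). Tgtp1, its near-identical neighbour, was at 0.34, 0.23 and 0.13 TPM in WT c-kit+ and at 0.44, 0.54 and 0.14 TPM in the labelled libraries. These ranges overlapped at very low levels, and Tgtp1 was not tested. Iigp1, also called Irga6, was listed at 0.04, 0 and 0 TPM in WT c-kit+ and at 0.31, 1.16 and 0.08 TPM in the labelled libraries. All 3 labelled values were above those of WT c-kit+, but only 1 library reached 1 TPM, so Iigp1 was not tested either.

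Of the 8 tested members, 7 had all 3 labelled libraries above all 3 WT c-kit+ libraries, where 39.0% of all genes tested did. An exact two-sided permutation test of 3 against 3 libraries cannot go below p = 0.1, and it gave that value for each of these 7 and for Iigp1. Marker lists of other cell types did not move as one. Summed macrophage markers were at 56.7 to 79.6 TPM in the labelled libraries against 31.4 to 51.9 in WT c-kit+, mostly from Adgre1, at 61.4 against 31.6 TPM on average. By mean, 2 of the 7 markers were higher and 5 lower, among them C1qa at 1.43 against 2.87 TPM, and 1 of 7 reached 1 TPM in all 9 libraries. The sum of the endothelial and stromal list, 32.2 to 55.9 against 16.8 to 30.6 TPM, was mostly Lepr, at 41.2 against 22.5 TPM, and 3 of its 5 genes, Cdh5, Emcn and Col1a1, were lower. Plasmacytoid dendritic cell markers summed to 0.80 to 2.29 against 0.43 to 0.63 TPM, mostly from Cox6a2, at 1.16 against 0.20 TPM, while Siglech and Ccr9 were lower and under 1 TPM in all 6 libraries. The part of these markers in the members' differences was not tested.

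**Figure D3:**
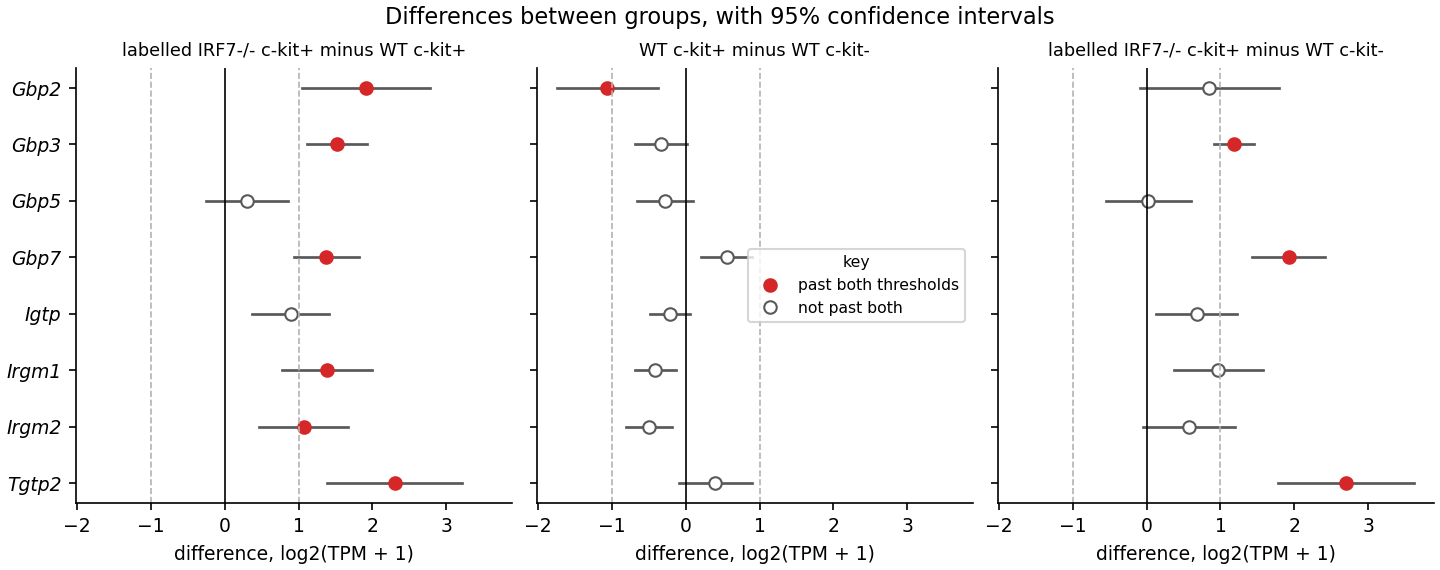
Difference in log2(TPM + 1) for the 8 tested members in the 3 comparisons, with 95% confidence intervals from limma. Filled red points passed both thresholds (adjusted p under 0.05 and a difference of at least 1, dashed lines), 6 in the left panel, 1 in the middle and 3 in the right.

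The second comparison, WT c-kit+ against WT c-kit-, asked what sets the immature fraction of the WT leukemia apart. Among the tested members 1 of 8, Gbp2, was lower in WT c-kit+ and none was higher, where 9.61% of all 13261 genes tested were called lower and 4.83% higher. At an unadjusted limma p under 0.05, 1 member was higher and 3 were lower. An adjusted p under 0.05 was seen for 4 of 8 members and for 41.6% of all genes tested. The members' median difference was -0.31 and that of all genes -0.08. Of the 8 members, 3 had all 3 WT c-kit+ libraries below all 3 WT c-kit- libraries, and 1 had them all above. Among all genes tested the shares were 34.7% and 19.7%, so these counts stand near those of all genes. Gbp2 was at 2.77, 2.98 and 5.83 TPM in WT c-kit-, above each of its WT c-kit+ values, and fell by 1.06 on the log2 scale (SE 0.29, adjusted p = 0.0242). This call was lost in 3 of the 6 fits that left out a library, namely WT c-kit- replicate 3 (-0.79, adjusted p = 0.0449), WT c-kit+ replicate 1 (-1.12, adjusted p = 0.0538) and WT c-kit+ replicate 3 (-0.87, adjusted p = 0.0712).

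The other members differed less between the WT fractions. Irgm1 was at 19.0, 17.5 and 21.6 TPM in WT c-kit-, above all of WT c-kit+, with a difference of -0.41 (SE 0.12, adjusted p = 0.0298). Irgm2 was at 9.15, 7.36 and 9.04 TPM in WT c-kit- and likewise did not overlap with WT c-kit+ (-0.50, SE 0.13, adjusted p = 0.0203). Gbp7 went the other way, at 2.44, 3.14 and 3.54 TPM in WT c-kit- and higher in each WT c-kit+ library, with a difference of 0.55 (SE 0.15, adjusted p = 0.0232). All 3 had an adjusted p under 0.05 and a difference below 1. Under some alternative settings their adjusted p rose above 0.05, to at most 0.184 for Irgm1, 0.112 for Irgm2 and 0.0793 for Gbp7. Gbp3, at 20.4, 21.6 and 21.02 TPM in WT c-kit-, Igtp, at 12.4, 11.5 and 14.5 TPM, and Gbp5, at 1.53, 2.04 and 2.22 TPM, each overlapped with WT c-kit+. Their differences were -0.34, -0.21 and -0.28, with adjusted p of 0.112, 0.177 and 0.209. Tgtp2 was at 0.60, 0.66 and 1.19 TPM in WT c-kit-, with a difference of 0.40 (adjusted p = 0.171). Tgtp1, at 0.10, 0.12 and 0.28 TPM, and Iigp1, listed at 0, 0.04 and 0 TPM, were not tested. Across the 6 WT libraries Gbp3 and the regulatory IRGs thus lay between 5.13 and 21.6 TPM, and no effector IRG was above 1.86 TPM. Single markers of other cell types moved in both directions between the WT fractions. Adgre1 was at 31.6 TPM on average in WT c-kit+ against 81.9 in WT c-kit-, and Siglech at 0.21 against 3.33 TPM. The other way, C1qa was at 2.87 against 0.57 TPM, C1qb at 3.77 against 0.93 and C1qc at 2.67 against 0.78, Gp9 of the megakaryocyte list at 7.77 against 0.44, and Nkg7 of the T and NK list at 164 against 1.42 TPM. Their part in the members' differences was not tested.

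Set against WT c-kit-, the libraries labelled IRF7-/- c-kit+ had 3 of 8 tested members higher, namely Gbp3, Gbp7 and Tgtp2, and none lower. Of all 13510 genes tested, 8.40% were called higher and 11.9% lower. This comparison shares its libraries with the other comparisons, so it adds no independent evidence, and it also joins the difference in c-kit with that in genotype. Tgtp2 differed by 2.70 (SE 0.39, adjusted p = 0.00109), Gbp7 by 1.93 (SE 0.21, adjusted p = 0.000311) and Gbp3 by 1.18 (SE 0.12, adjusted p = 0.000206). Irgm1 (0.97, adjusted p = 0.0151) and Igtp (0.68, adjusted p = 0.0391) had an adjusted p under 0.05 and a difference below 1. With Gbp3, Gbp7 and Tgtp2 they were the 5 of 8 tested members whose labelled libraries all lay above WT c-kit-, against 34.7% of all genes tested. The Irgm1 difference was above 1 when WT c-kit- replicate 3 (1.05), labelled replicate 2 (1.05) or labelled replicate 3 (1.20) was left out. Without the labelled replicate 3, Gbp2 was also called (1.23, adjusted p = 0.0198), which brought the count to 5. With all libraries Gbp2 (0.85, adjusted p = 0.104), Irgm2 (0.57, adjusted p = 0.0976) and Gbp5 (0.02, adjusted p = 0.941) overlapped with WT c-kit-. All 8 differences were above 0, 5 of them at an unadjusted limma p under 0.05. The same number, 5 of 8, had an adjusted p under 0.05, where 59.4% of all genes tested did. The median over the 8 tested members was 0.91, against 0.03 for all genes.

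The 3 labelled libraries were unlike one another. Relative to the WT c-kit+ mean, the median difference was 1.67, 1.20 and 0.94 in replicates 1, 2 and 3, over the 9 members with at least 1 TPM in a labelled library, all but Tgtp1. Replicate 1 held a median of 1.58 times the mean level of replicates 2 and 3 in these members. By class the median ratio was 1.16 for the GBPs, 1.80 for the regulatory IRGs and 1.275 for the effector IRGs. The last rests on 2 genes that went opposite ways. Tgtp2 was at 2.05, the 1 member above 2, and Iigp1 at 0.5, from very low levels. Type I interferon targets, a list of 25 genes such as Isg15, Oas and Ifit genes, were raised in replicate 1 to a greater extent, with a median ratio of 2.94 over 24 genes and 20 of them above 2. The interferon-gamma-type targets, such as chemokine and antigen-processing genes, had a median ratio of 1.09. Without replicate 1 the members called higher than WT c-kit+ went from 6 to 5 of 8 and their median from 1.38 to 1.13. Type I targets went from 20 of 23 to 11 of 19. Over all genes, the calls in both directions went from 1548 to 1242 in the same fit, which had 1 library fewer. How much of the drop in type I targets came from the smaller number of libraries was not tested. The 4 called type I targets that reached 1 TPM in no WT c-kit+ library left the test. The labelled libraries that remained were too few for the filter of 3 libraries, so this part of the drop was fixed by the filter.

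**Figure D4:**
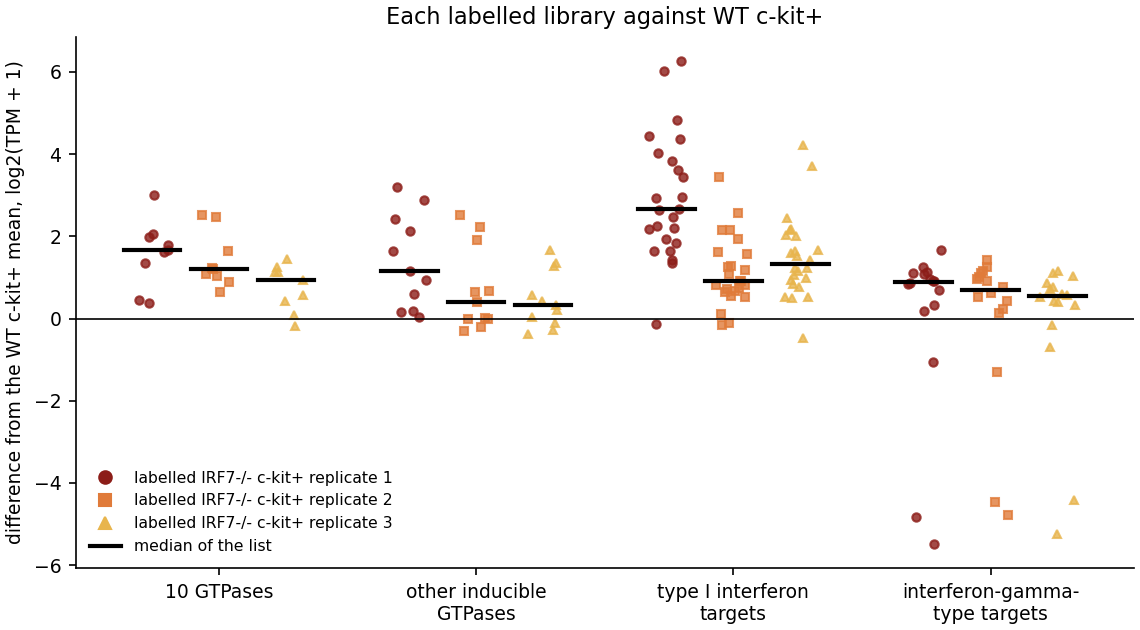
Difference of each of the 3 libraries labelled IRF7-/- c-kit+ from the WT c-kit+ mean, in log2(TPM + 1), for genes with at least 1 TPM in a labelled library (points are genes, black bars are medians). The medians are 1.67, 1.20 and 0.94 for the GTPases and 2.66, 0.92 and 1.32 for the type I interferon targets in replicates 1, 2 and 3.

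The other inducible GTPases of the mouse were looked at as a list of 17 genes. In the libraries labelled IRF7-/- c-kit+, 3 of 8 tested were higher than in WT c-kit+ and none was lower (4 and 0 at an unadjusted limma p under 0.05), with a median of 0.46. Gbp6, a GBP outside the chromosome 3 cluster, was at 0.36, 0.29 and 0.02 TPM in WT c-kit+ and at 10.2, 5.97 and 2.83 TPM in the labelled libraries (2.46, SE 0.38, adjusted p = 0.00247). It reached 1 TPM in the labelled libraries only, so it entered the test through the group in which it was high. Gm12250, the effector IRG also called Irgb10, was at 1.41, 2.07 and 1.43 TPM against 13.1, 11.3 and 5.37 TPM (1.98, SE 0.30, adjusted p = 0.00244). Gvin1, a very large inducible GTPase, was at 2.44, 2.40 and 2.40 TPM against 24.1, 11.8 and 7.69 TPM (2.04, SE 0.36, adjusted p = 0.00408). Without the labelled replicate 1, 2 of 7 tested were called, and Gbp6 left the test because the labelled libraries that remained were too few for the filter. Gbp10 was listed at 0 in all 6 WT libraries and at 1.23, 0.58 and 0.50 TPM in the labelled libraries, and Gbp11 was listed at 0 in all 9.

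Between the WT fractions, 6 of 8 tested relatives were lower in WT c-kit+ than in WT c-kit- and none was higher (7 and 0 at an unadjusted limma p under 0.05), with a median of -1.91. The count for the 10 members, 1 of 8 lower, stands beside this as a description. Those that fell most were Gvin1 (-3.35, adjusted p = 8.94e-06), Mx1, an antiviral dynamin-like GTPase (-3.35, adjusted p = 1.83e-05), its relative Mx2 (-2.42, adjusted p = 0.000156) and 9930111J21Rik2 (-1.93, adjusted p = 3.26e-05). Mx2 reached 1 TPM in WT c-kit- and in no WT c-kit+ library, so it was tested through the group in which it was high. Mx1 was at 28.8, 29.9 and 30.4 TPM in WT c-kit- and at 1.88, 1.62 and 2.62 TPM in WT c-kit+. In the labelled libraries Mx1 was at 8.39, 2.02 and 2.50 TPM. Replicate 1 alone stood above WT c-kit+, and all 3 lay below WT c-kit-. Whether the lists differ was not tested. Against WT c-kit- the labelled libraries had 1 of 9 relatives higher, Gbp6, which reached 1 TPM in the labelled libraries only, and 5 lower.

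**Figure D5:**
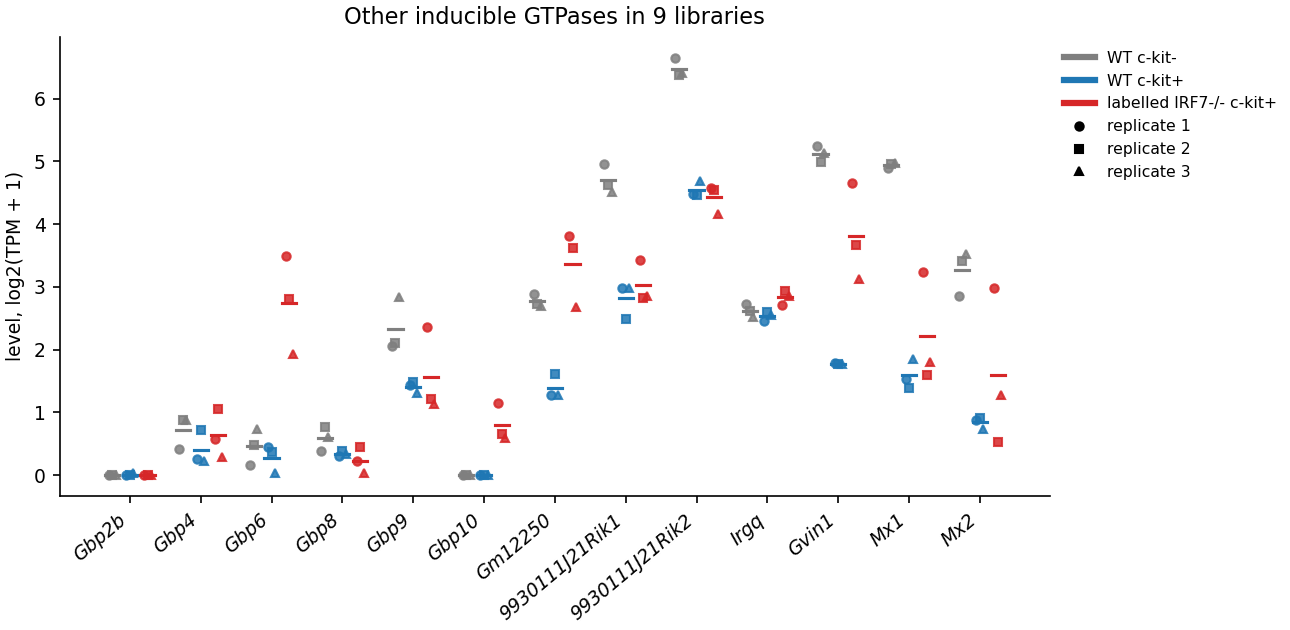
Level of 13 of the 17 other inducible GTPases, as log2(TPM + 1), in the 9 libraries (markers for replicates, bars for group means). Gbp6, Gm12250 and Gvin1 show all 3 libraries labelled IRF7-/- c-kit+ above WT c-kit+, and Gvin1, Mx1 and Mx2 show WT c-kit- above WT c-kit+.

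Upstream of the GTPases, none of the 11 interferon genes looked at reached the level needed for a test in any comparison, and in the labelled libraries all 11 were listed at 0. In the labelled libraries 1 of 19 tested signalling genes was higher than in WT c-kit+, namely Usp18, an interferon-induced brake on type I signalling (3.11, adjusted p = 0.00729), and 2 were lower (8 and 6 at an unadjusted limma p under 0.05). These were Irf8, a factor of monocyte development that also acts with IRF1 (-1.59, adjusted p = 0.00700), and Ciita, the activator of MHC class II genes (-1.43, adjusted p = 0.000736). Usp18 reached 1 TPM in no WT c-kit+ library and Ciita in no labelled library, so each entered this test through the group in which it was high. Irf1, an activator of interferon-induced genes, was higher in each labelled library, at 49.7, 52.4 and 43.0 TPM against 40.6, 41.3 and 32.8 TPM, by 0.33 (adjusted p = 0.0492). The receptor chain Ifngr1, at 233, 237 and 222 TPM in WT c-kit+, was at 464, 397 and 468 TPM in the labelled libraries without overlap, and its difference of 0.94 (adjusted p = 0.000246) was below 1. Irf1 and Ifngr1 were named after their values were seen. In WT c-kit+ against WT c-kit-, 0 of 20 signalling genes were higher and 7 lower (2 and 14 at an unadjusted limma p under 0.05), led by Irf7 (-2.38), Irf8 (-2.08), Usp18 (-1.85, which reached 1 TPM in WT c-kit- but not in WT c-kit+) and the receptor chain Ifngr2 (-1.85).

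Alongside the GTPases, 5 of 16 tested interferon-gamma-type targets were higher in the labelled libraries than in WT c-kit+ and 3 were lower (12 and 3 at an unadjusted limma p under 0.05), with a median of 0.77. The chemokine gene Cxcl10 (1.16, adjusted p = 0.0120) and the adhesion gene Icam1 (1.13, adjusted p = 0.00163) were among those that rose. Those that fell were the MHC class II genes H2-Aa (-4.56, adjusted p = 8.77e-06) and H2-Ab1 (-1.02, adjusted p = 0.00227) and the class II invariant chain Cd74 (-5.17, adjusted p = 1.08e-05), where H2-Ab1 was named after its values were seen. Of the type I interferon targets 20 of 23 were higher and none lower (21 and 1 at an unadjusted limma p under 0.05), with a median of 1.70, led by Rtp4 (4.64), Ifi27l2a (4.10), Oasl2 (3.00) and Zbp1 (2.83). Of the 20, Rtp4, Rsad2, Ifit1 and Oasl1 reached 1 TPM in no WT c-kit+ library, so these 4 entered the test through the labelled libraries, where they were high. They are named here for that reason, after their values were seen. Among genes whose products work with the GTPases, 0 of 14 autophagy conjugation genes were higher and 1, Map1lc3a, was lower (-1.49, adjusted p = 0.000690), where 3 and 4 were at an unadjusted limma p under 0.05. Of 9 inflammasome genes none was higher and 2 were lower, namely Il1b (-2.57, adjusted p = 5.09e-05) and Nlrp3 (-2.13, adjusted p = 0.00610), where 4 and 4 were at an unadjusted limma p under 0.05. Il1b reached 1 TPM in no labelled library and entered the test through WT c-kit+.

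The genes most like the GTPases across the 9 libraries were found by Pearson correlation of log2(TPM + 1). Each gene was set against the mean standardized profile of the 8 tested members. The 11057 genes compared, members left out, had a mean of at least 5 TPM in 1 or more groups. The 9 points share 3 groups and the same libraries, so r is given as a description. The highest were B2m (r = 0.989), the light chain of MHC class I, Gbp6 (0.977), the class I heavy chain gene H2-K1 (0.965), Tap1 (0.962), and the immunoproteasome subunit gene Psmb9 (0.958). The rest of the first 10 were Sfxn2 (0.947), Upf1 (0.943), 2010005H15Rik (0.935), Oasl1 (0.935) and Smim10l1 (0.931). Gbp6, 2010005H15Rik and Oasl1 reached the mean needed in the labelled libraries only, where the members' profile is also highest. Their high r was thus in part fixed by the filter. B2m was at 2167, 2270 and 2352 TPM in WT c-kit-, 2056, 1984 and 1692 TPM in WT c-kit+, with 4027, 3577 and 2748 TPM in the labelled libraries.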

How the data were processed

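The deposited table holds the authors' TPM of 55536 genes in 9 libraries, made with a TruSeq RNA kit that does not mark strand. The aligner, its settings and the genome build are not given in the sources used here, and the study's text calls the assay a microarray. The header names no unit. TPM was inferred from library sums of 987468 to 992231. TPM keep no depth, so no counting intervals are given, and precision is known from the spread of 3 libraries. The table held no columns of comparisons, and each value column matched a sample label.

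Members were matched by gene symbol. Values were transformed to log2(TPM + 1), and genes that reached 1 TPM in 3 or more of a pair's 6 libraries were fitted with limma 3.58.1 in R 4.3.3 (lmFit, eBayes with trend), 1 fit per pair, with Benjamini-Hochberg adjustment over all genes tested. Calls needed an adjusted p under 0.05 and a difference of at least 1 in size. Unadjusted counts of the lists have no matching share of all genes here. The share at an adjusted p under 0.05, both directions together, was 48% for labelled libraries against WT c-kit+. It was 41.6% between the WT fractions and 59.4% for labelled libraries against WT c-kit-. Unadjusted shares cannot be lower than these. Exact permutation tests were two-sided. The fit was tested on simulated data. Promoter windows came from RefSeq (GRCm38.p6) and gene positions from GENCODE M21 (GRCm38), in which gene identifiers of the members were found. Alternatives were a pseudocount of 0.1 TPM, no filter or a filter of 5 TPM, quantile normalization, centring on the median gene, 1 fit of all 9 libraries, a replicate block and leaving out each library.

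All members were named. From each other list up to 4 genes past both thresholds with the largest differences were named, with the 10 genes most correlated with the members, and exceptions are marked. The members and lists were chosen with earlier results of these data known. Results for some genes are not reported here.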

Additional observations from a re-analysis of the deposited data

How the results depend on the processing

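Of the members' differences recomputed under the alternatives, 281 kept their direction and stayed called or not called, 10 lost a call, 7 gained one and 4 changed sign. Some of the 281 crossed 1 threshold without a change of call. Irgm1 between the WT fractions went to a limma adjusted p of 0.184 with 1 fit of all 9 libraries. Igtp in the labelled libraries against WT c-kit- went to 0.106 without WT c-kit- replicate 2. Against WT c-kit+, the libraries labelled IRF7-/- c-kit+ had 5 to 7 members higher when 1 library was left out and 5 or 6 under the other settings. Irgm2 was the member lost under quantile normalization (0.98) and centring on the median gene (0.95), as without the labelled replicate 1. The genes called in that comparison numbered 1548, and 1015 with a filter of 5 TPM, which tests fewer genes. The 1 member called lower in WT c-kit+ than in WT c-kit-, Gbp2, went to 0 with no filter (-1.06, adjusted p = 0.0684), with a filter of 5 TPM, which removes it from the test, with quantile normalization (-0.96) and with centring (-0.98), and to between 0 and 1 when 1 library was left out. Members higher in the labelled libraries than in WT c-kit- numbered 3 to 5 when 1 library was left out. Gbp5 in that comparison changed from 0.02 to -0.006207 with centring, and ranged from -0.15 to 0.27 when 1 library was left out. Beyond the filter and the left-out libraries, the cause of these changes was not tested.

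Replicate numbers were shared by the groups, but deviations of libraries with the same number correlated at -0.053 to 0.203 over the 3 comparisons, so the numbers were not taken as pairs. Each library correlated best with its own number in 6 of 6, 2 of 6 and 6 of 6 libraries, a hint from the data only. With the replicate block 6, 0 and 3 members were called higher, as without it, and Gbp2 was not called lower in WT c-kit+ (-1.06, adjusted p = 0.0645), so 0 members were lower there. The genes called were 1549, 1950 and 2749 with the block. Arms left with 1 library fewer were fitted on 5 libraries.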
